A study of Homo sapiens with 12 samples.

Results

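Expression of 9 genes for enzymes and partners of leukotriene and prostanoid synthesis was examined in MOLM-13 cells, out of 60668 genes counted. The genes were taken by symbol: PLA2G4A, ALOX5, ALOX5AP, LTA4H, LTC4S, CYP4F3, PTGS1, PTGS2 and TBXAS1, each of which had 1 row in every count file. CYP4F3 was included with its rise under MI-3454 already known, so its level in MI-3454 and DMSO libraries is given as a description with no test. The other 8 were taken for their place in the pathway, although their values in these libraries may also have been in view.

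MOLM-13 is an established line of acute monocytic leukaemia, with the fusion gene MLL-AF9 and a FLT3 gene that has an internal tandem duplication. The 12 libraries of ribosomal RNA-depleted RNA fall into 4 groups of 3: DMSO (the solvent control), gilteritinib, MI-3454, and gilteritinib together with MI-3454, called the combination below. Gilteritinib inhibits the FLT3 kinase, and MI-3454 blocks the binding of menin to MLL1. All groups were cultured in the same medium, and treatment lasted 8 days. The 3 libraries of a group come from separately seeded cultures of 1 line, so the p-values measure the spread between cultures and not between patients or lines. In bulk RNA of this kind, fewer cells expressing a gene and less RNA per cell cannot be told apart.

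Leukotrienes and prostanoids are made from arachidonic acid, which cytosolic phospholipase A2, the product of PLA2G4A, cuts from membrane lipids. In leukocytes, 5-lipoxygenase (ALOX5), helped by its membrane partner FLAP (ALOX5AP), turns arachidonic acid into leukotriene A4. LTA4H then makes leukotriene B4, which attracts neutrophils, LTC4S makes the cysteinyl leukotriene C4, and the cytochrome P450 CYP4F3 hydroxylates leukotriene B4 and so begins its breakdown. In the other branch, the cyclooxygenases PTGS1 and PTGS2 make prostaglandin H2, from which TBXAS1 forms thromboxane A2. Mature monocytes and neutrophils are main sources of these lipids in blood.

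The sequences just upstream of 4 members are printed because these members showed the contrasts described below: ALOX5AP was the most abundant per length, LTC4S was higher under every treatment, CYP4F3 was near the detection limit without MI-3454, and TBXAS1 was higher in all 6 libraries with MI-3454 than in the 6 without it. RefSeq windows (GRCh38.p14) matched 8 of the 9 members, with 9 windows in all, and none was matched to ALOX5. Each sequence is the longest stretch of the 250 bases before the RefSeq start that lies outside annotated exons, read 5′ to 3′ on the gene's strand. Capitals mark matches on either strand to GGGCGG (Sp1 box), GAGGAA (PU.1 core), TTGCNNAA (C/EBP), TTCNNNGAA (STAT) or TGTGGT (RUNX), which do not overlap each other in these windows. CYP4F3 had none of these, and its capitals mark a run that occurs 2 times.
ALOX5AP, chr13:30713235-30713477, plus strand: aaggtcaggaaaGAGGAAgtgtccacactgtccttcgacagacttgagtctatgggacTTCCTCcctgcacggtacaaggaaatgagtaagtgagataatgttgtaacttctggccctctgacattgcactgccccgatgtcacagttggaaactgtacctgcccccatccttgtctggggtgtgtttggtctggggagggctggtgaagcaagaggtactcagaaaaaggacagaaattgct
LTC4S, chr5:179793736-179793979, plus strand: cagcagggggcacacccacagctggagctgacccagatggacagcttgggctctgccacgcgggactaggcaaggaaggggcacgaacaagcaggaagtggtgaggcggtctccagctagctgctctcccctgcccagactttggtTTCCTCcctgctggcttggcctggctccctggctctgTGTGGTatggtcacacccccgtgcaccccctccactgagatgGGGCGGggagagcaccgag
CYP4F3, chr19:15641062-15641293, plus strand: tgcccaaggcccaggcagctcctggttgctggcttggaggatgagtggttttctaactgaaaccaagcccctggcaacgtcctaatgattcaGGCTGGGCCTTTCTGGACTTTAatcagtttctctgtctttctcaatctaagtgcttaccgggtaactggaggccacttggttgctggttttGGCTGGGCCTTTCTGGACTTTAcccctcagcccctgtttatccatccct
TBXAS1, chr7:139829014-139829223, plus strand: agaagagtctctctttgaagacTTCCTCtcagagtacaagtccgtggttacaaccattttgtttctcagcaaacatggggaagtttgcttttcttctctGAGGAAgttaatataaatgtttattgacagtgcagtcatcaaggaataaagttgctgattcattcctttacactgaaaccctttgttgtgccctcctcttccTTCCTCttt

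The TBXAS1 window held 3 matches to the PU.1 core, beginning 228, 151 and 49 bases before the start, and the ALOX5AP window held 2, beginning 238 and 192 bases before it. LTC4S had 1 match each to the PU.1 core, the RUNX letters and the Sp1 box, beginning 104, 67 and 25 bases before the start. Of all 35116 windows of the same length, 23.6% held the PU.1 core, 42.6% the Sp1 box, 11% the RUNX letters, 9.05% the C/EBP letters and 6.57% the STAT letters. Each of the windows of PTGS1 held 1 Sp1 box, PTGS2 held 1 C/EBP match, and the windows of LTA4H and PLA2G4A held none of the motifs. In CYP4F3 the 22-base run GGCTGGGCCTTTCTGGACTTTA began 158 and again 67 bases before the start, and 1.25% of all windows held a repeated run of that length. The repeat was picked out after the window had been read. The windows of CYP4F3, TBXAS1 and LTA4H, and 1 of the windows of PTGS1, lie within the gene as annotated by GENCODE. They are downstream of the start of a longer transcript model.

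In units of 1000000 counts, each DMSO library held 9.02 to 11.1 units assigned to genes, each gilteritinib library 9.03 to 12.1, each MI-3454 library 8.98 to 9.93 and each combination library 6.47 to 11.3. Reads of unique alignments lying outside annotated exons made up 28.5% to 36.5% in the combination, against 15.6% to 25.5% in the other groups. In each group 1 library had the highest share of the small cytoplasmic RNA RN7SL1 (DMSO 2, gilteritinib 2, MI-3454 3 and combination 1). The 7 markers of the line's myeloid identity were all at 1 CPM (counts per 1000000 reads in genes, scaled by TMM) or more in every group, but not at steady levels. In DMSO, gilteritinib, MI-3454 and combination libraries, MEIS1 averaged 69.55, 93.0, 10.9 and 4.99 CPM. FLT3 averaged 716, 522, 226 and 186 CPM and HOXA9 64.1, 57.1, 37.9 and 28.8 in the same order. CD33 was higher under each treatment (94.9, 147, 163 and 173 CPM), and PTPRC, SPI1 and CEBPA moved less. The summed level of 8 monocyte markers was 496 to 562 CPM in DMSO, 681 to 872 with gilteritinib, 7421 to 9094 with MI-3454 and 13420 to 14740 with the combination, with LYZ making up most of it. CD14 averaged 0.294, 0.0285, 12.6 and 14.1 CPM in the same order. The sum of 8 neutrophil markers was 287 to 347 CPM in DMSO, 380 to 419 with gilteritinib, 563 to 724 with MI-3454 and 868 to 924 with the combination. Most of it was CSF3R (means of 307, 395, 585 and 783 CPM), the only 1 of the 8 at 1 CPM or more in DMSO. The remaining markers were low in DMSO and higher in both groups with MI-3454, except CEACAM8, S100A12 and LTF, which were at or near 0. In the same order FCAR averaged 0.922, 2.58, 25.3 and 51.5 CPM and S100A8 0.799, 0.206, 8.48 and 24.8. S100A9 averaged 0.529, 0.420, 9.64 and 24.85 CPM and FPR1 0.223, 0.187, 2.775 and 4.84. Markers of eosinophils, basophils and mast cells summed to 48.0 to 53.1 CPM in DMSO, 180 to 210 with gilteritinib, 23.4 to 35.2 with MI-3454 and 11.9 to 14.2 with the combination, and most of this was EPX. Platelet markers summed to at most 1.96 CPM with PPBP at 0 in all groups, lymphoid markers to at most 68.9 CPM with MS4A1 at 0, and erythroid markers to at most 0.103 CPM. The part of these marker shifts, and of the share outside exons, in the results that follow was not tested.

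Of the 9 genes, all passed the filter on low counts, which kept 13972 genes. A gene was called changed at an adjusted p under 0.05 (edgeR's quasi-likelihood test, Benjamini-Hochberg over all genes tested). With MI-3454 against DMSO, the comparison with which CYP4F3 was chosen, 4 of the 8 other genes were called higher (ALOX5, LTA4H, LTC4S and TBXAS1) and 2 lower (PLA2G4A and PTGS1), where 19.0% of all genes were called, 10.1% higher and 8.95% lower. With gilteritinib against DMSO, LTC4S was higher and ALOX5 lower, where 15.1% of all genes were called, 6.92% higher and 8.18% lower. With the combination against DMSO, 6 of the 8 genes other than CYP4F3 were higher and PTGS1 was lower, and PLA2G4A did not pass the test, but 57.5% of all genes were called in that comparison, 29.2% higher and 28.4% lower. The median log2 fold change of the 8 genes was 0.58 with MI-3454 (0.43 to 0.65 over the alternatives), -0.11 with gilteritinib (-0.17 to -0.03) and 0.77 with the combination (0.66 to 0.87), against medians over all tested genes of 0.0032, -0.0007 and -0.0007. The 3 comparisons share the DMSO libraries, which are also among those with which CYP4F3 was chosen. Total-count scaling moved the median of all genes by 0.10 on the log2 scale with the combination. With the replicate number as a block, gilteritinib against DMSO called 4928 genes in place of 2110, and its counts among the 9 were again 1 higher and 1 lower. Without the 4 libraries highest in RN7SL1, the calls higher and lower among the 8 were 4 and 2 with MI-3454, 1 and 1 with gilteritinib, and 5 and 1 with the combination.

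**Figure D1:**
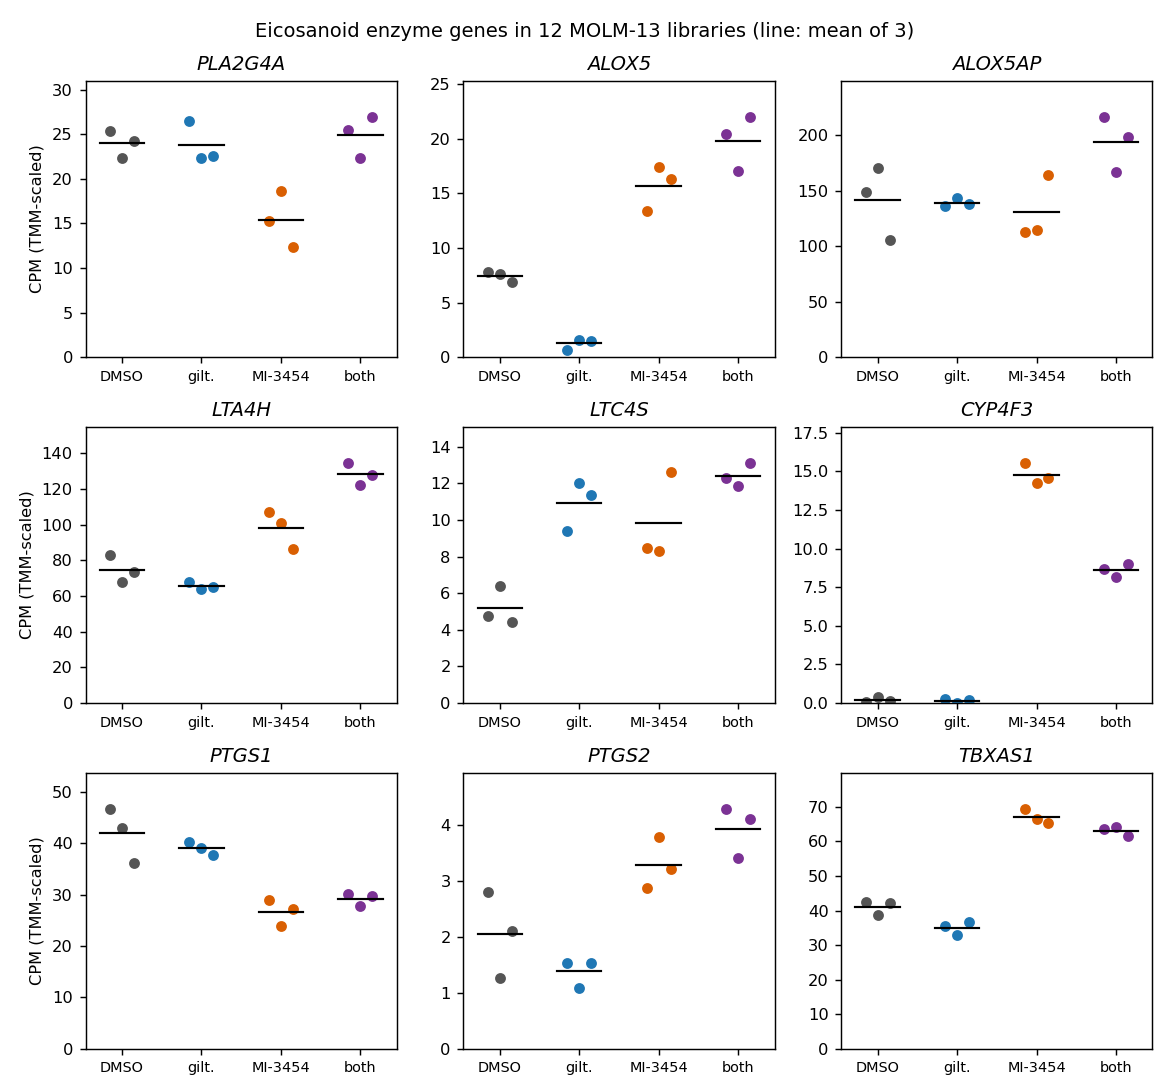
Expression of the 9 genes in each library (y axis, TMM-scaled CPM, from 0) in the 4 treatment groups (x axis; gilt. is gilteritinib, both is the combination), with points for the 3 libraries of a group and lines for their mean. ALOX5 lies between 0.684 and 1.57 CPM with gilteritinib alone and between 17.0 and 22 CPM with the combination, and CYP4F3 reaches no more than 0.389 CPM without MI-3454.

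Per kilobase of merged exon, ALOX5AP had the highest level of the 9 in every group, from 76.2 ± 16.9 CPM per kb (SD, n = 3) with MI-3454 to 113 ± 14.5 with the combination. LTA4H followed in every group except gilteritinib, where LTC4S (9.17 ± 1.14 CPM per kb), LTA4H (8.93 ± 0.253) and PLA2G4A (8.26 ± 0.808) lay within their spread. In DMSO the order after LTA4H (10.2 ± 1.06 CPM per kb) was PLA2G4A (8.35 ± 0.533), PTGS1 (7.25 ± 0.920), TBXAS1 (6.62 ± 0.334), LTC4S (4.37 ± 0.887), ALOX5 (1.99 ± 0.131), PTGS2 (0.391 ± 0.146) and CYP4F3 (0.0358 ± 0.0300). Of these neighbours, PLA2G4A and PTGS1 did not differ beyond their SDs, nor did PTGS1 and TBXAS1. With MI-3454, TBXAS1 (10.8 ± 0.343 CPM per kb) and LTC4S (8.23 ± 2.06) came after LTA4H, ahead of PLA2G4A (5.36 ± 1.10), PTGS1 (4.61 ± 0.431) and ALOX5 (4.21 ± 0.565), the last 4 of which overlap their neighbours within 1 SD. CYP4F3 (2.68 ± 0.123 CPM per kb) came next and PTGS2 (0.625 ± 0.0887) was lowest. With the combination, LTC4S (10.4 ± 0.534 CPM per kb) and TBXAS1 (10.2 ± 0.211) did not differ beyond their SDs, nor did ALOX5 (5.31 ± 0.682) and PTGS1 (5.05 ± 0.227).

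PLA2G4A (ENSG00000116711.10, GRCh38 chr1:186828953-186988981, plus strand), which releases arachidonic acid, was lower in the MI-3454 libraries than in all others. It measured 25.4, 22.4 and 24.2 CPM in DMSO, 26.4, 22.3 and 22.6 with gilteritinib, 15.2, 18.7 and 12.3 with MI-3454, and 25.4, 22.3 and 26.9 with the combination. The 3 MI-3454 values lay below the other 9, which overlapped each other. The log2 fold change of MI-3454 against DMSO was -0.59 ± 0.17 (SE; edgeR adjusted p = 0.0269), and that of the combination against MI-3454 was 0.72 ± 0.16 (adjusted p = 0.00572). In that second comparison 29.2% of all genes were called, 14.1% higher and 15.1% lower. Of the 8 members other than CYP4F3, which is described below, PLA2G4A, ALOX5AP and LTA4H were called higher and none lower. Over all genes this comparison had 1973 higher and 2103 lower calls, and 2462 and 1442 with total-count scaling. The fall with MI-3454 did not pass the test in 6 of 13 alternatives, among them the replicate block (adjusted p = 0.0774), total-count scaling (0.0590) and the fits without DMSO 1 (0.105), DMSO 3 (0.0740), MI-3454 1 (0.0858) or MI-3454 3 (0.0582). Combination and DMSO differed by 0.12 ± 0.13 on the log2 scale (adjusted p = 0.424).

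ALOX5 (ENSG00000012779.11, chr10:45374176-45446119, plus strand), the enzyme that starts leukotriene synthesis, moved in opposite directions under the single agents. Its level was 7.84, 7.58 and 6.89 CPM in DMSO and 0.684, 1.57 and 1.53 CPM with gilteritinib, from 8, 13 and 14 reads. It was 13.4, 17.4 and 16.3 CPM with MI-3454 and 20.4, 17.0 and 22 CPM with the combination. The gilteritinib libraries lay below all others, DMSO was next, and the MI-3454 and combination libraries lay above both and overlapped each other. Gilteritinib lowered ALOX5 against DMSO by 5.95-fold (log2 -2.57 ± 0.28, edgeR adjusted p = 5.728e-05), and MI-3454 raised it 2.18-fold (log2 1.13 ± 0.17, adjusted p = 0.000541). With MI-3454 present, the fall was not seen: the combination stood at 0.36 ± 0.15 on the log2 scale against MI-3454 alone (adjusted p = 0.0891), and at 4.07 ± 0.23, 16.8-fold, against gilteritinib alone (adjusted p = 3.824e-09). Leaving out CYP4F3, 5 of the 8 other members were called higher in this last comparison and 1 lower. Of all genes, 60.4% were called in it, 30.1% higher and 30.3% lower. The 4210 higher and 4230 lower calls over all genes became 4993 and 3157 with total-count scaling, which moved the median of all genes by 0.12 on the log2 scale. These calls for ALOX5 against DMSO and against gilteritinib held in every alternative tried, with the fall ranging from -2.77 to -2.21. The monocyte marker sum was higher in the groups in which ALOX5 rose. With gilteritinib, where ALOX5 was lowest, that sum, mostly LYZ, was 681 to 872 CPM against 496 to 562 in DMSO. CYBB and MNDA were also higher with gilteritinib, at means of 29.4 against 12.02 CPM and 5.84 against 3.23 CPM. CSF1R was lower, at 71.7 against 88.8 CPM. CD14 was lower too, at 0.0285 against 0.294 CPM, but from only 1 read in its group against 9 in DMSO. Libraries of gilteritinib and DMSO overlapped for VCAN, CD68 and FCN1. The part of these markers in the ALOX5 values was not tested.

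The change with gilteritinib in the presence of MI-3454, minus its change in the absence of MI-3454, was tested over all 12 libraries, and 15.3% of all genes were called in that test, 6.55% higher and 8.74% lower. The log2 difference was 2.93 ± 0.31 for ALOX5 (edgeR adjusted p = 1.471e-05), 0.56 ± 0.14 for LTA4H (adjusted p = 0.0130) and 0.69 ± 0.20 for PLA2G4A (adjusted p = 0.0274). ALOX5 thus had the largest difference of the 9 genes, and no member was called in the other direction. For ALOX5AP the difference was 0.58 ± 0.24 (adjusted p = 0.109), for PTGS2 0.80 ± 0.40 (0.192), for LTC4S -0.73 ± 0.27 (0.0825), and for PTGS1, TBXAS1 and CYP4F3 it was 0.23 ± 0.16, 0.13 ± 0.12 and -0.58 ± 0.84. The PLA2G4A call was lost in 5 of 18 alternatives, with adjusted p-values of 0.0506 to 0.0673, and ALOX5AP was called in 5 of 18, among them total-count scaling (0.0311) and no filter on low counts (0.00662). Higher and lower calls over all genes were 915 and 1221, and 1113 and 809 with total-count scaling, which shifted the median of all genes by 0.13 on the log2 scale.

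**Figure D2:**
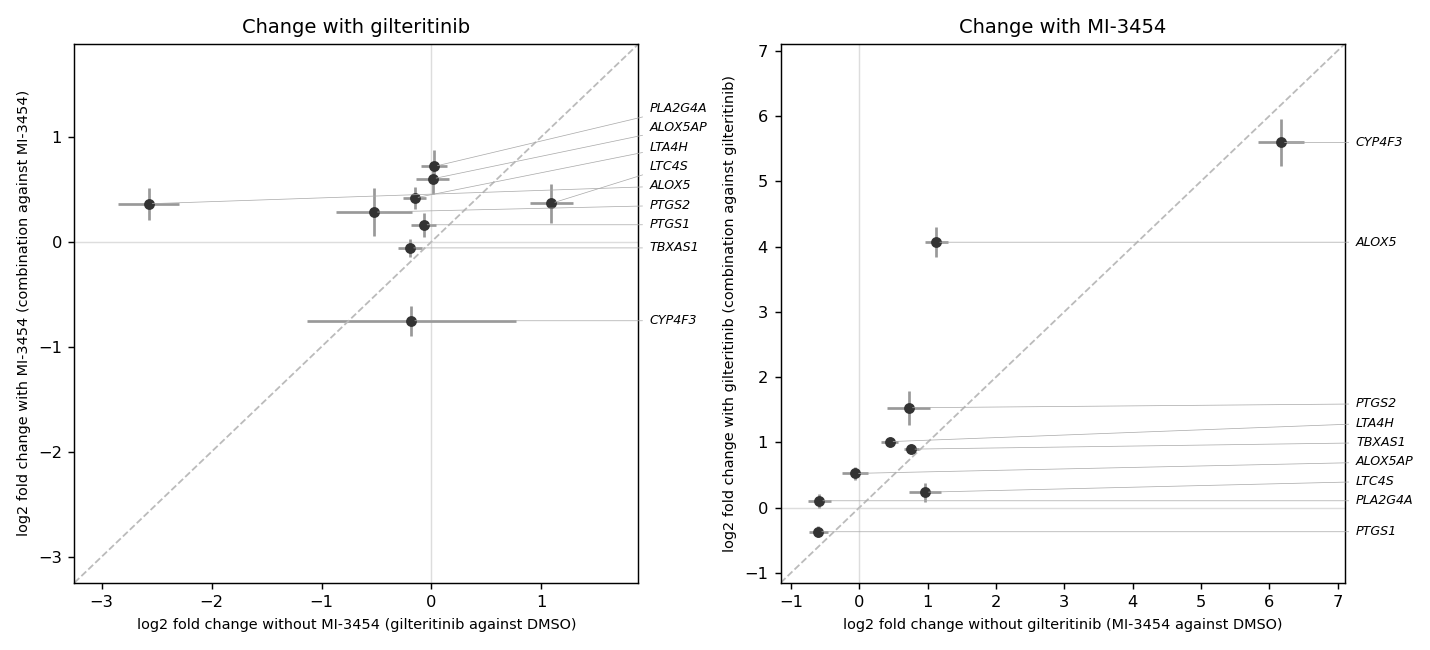
Log2 fold changes of the 9 genes with 1 agent in the absence (x axis) and presence (y axis) of the other, with SE bars and a dashed line of equal change. Left, gilteritinib: ALOX5 is at -2.57 without and 0.36 with MI-3454; right, MI-3454: ALOX5 is at 1.13 without and 4.07 with gilteritinib, and CYP4F3 is above 5 on both axes.

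ALOX5AP (ENSG00000132965.9, chr13:30713478-30764426, plus strand), which presents arachidonic acid to 5-lipoxygenase, was called under neither single agent and was higher with the combination. It measured 149, 171 and 105 CPM in DMSO, 136, 144 and 138 with gilteritinib, 113, 115 and 164 with MI-3454, and 216, 167 and 198 with the combination. The combination libraries lay above those of both single agents but overlapped DMSO, whose values spread widely. The log2 fold change was 0.01 ± 0.15 with gilteritinib (edgeR adjusted p = 0.972), -0.06 ± 0.19 with MI-3454 (0.864) and 0.53 ± 0.15 with the combination (0.00643). Against MI-3454 alone the combination was higher by 0.60 ± 0.15 (adjusted p = 0.0110), a call lost without MI-3454 1 (0.0705). ALOX5 and ALOX5AP thus fell on different sides of the threshold with each single agent, and the difference between the 2 genes was not itself tested.

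LTA4H (ENSG00000111144.10, chr12:96000828-96043520, minus strand), which makes leukotriene B4, was highest with the combination. Its values were 83.2, 67.8 and 73.4 CPM in DMSO, 67.7, 64.1 and 65.1 with gilteritinib, 107, 101 and 86.1 with MI-3454, and 135, 122 and 128 with the combination. The 4 groups did not overlap, though gilteritinib lay only just below DMSO. The combination exceeded DMSO by 0.85 ± 0.11 on the log2 scale, 1.80-fold (edgeR adjusted p = 4.322e-06), gilteritinib by 1.01 ± 0.07 (5.707e-08) and MI-3454 by 0.42 ± 0.10 (0.0102). The rise with MI-3454 alone was 0.44 ± 0.13 (adjusted p = 0.0295) and did not pass in 6 of 13 alternatives, among them the replicate block (0.0804), total-count scaling (0.0608) and the fits without DMSO 2 (0.0609), DMSO 3 (0.0971), MI-3454 1 (0.136) or MI-3454 2 (0.0958). Of the gene's 50-base stretches, 7.33% also occur in other annotated transcripts, and an antisense gene on the opposite strand had 257 counts in all libraries against 10610 for LTA4H.

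LTC4S (ENSG00000213316.10, chr5:179793980-179796647, plus strand), which makes the first cysteinyl leukotriene, was the only member called higher under all 3 treatments against DMSO. It measured 4.76, 6.41 and 4.45 CPM in DMSO, 9.41, 12.04 and 11.3 with gilteritinib, 8.49, 8.30 and 12.6 with MI-3454, and 12.3, 11.9 and 13.1 with the combination. All 9 treated libraries lay above the 3 DMSO libraries, and the treated groups overlapped. The log2 fold changes against DMSO were 1.09 ± 0.19 with gilteritinib (edgeR adjusted p = 0.00231), 0.96 ± 0.23 with MI-3454 (0.0122) and 1.32 ± 0.19 with the combination (1.371e-05). The call with MI-3454 was lost without DMSO 1 (adjusted p = 0.0640). The combination against MI-3454 gave 0.37 ± 0.18 (adjusted p = 0.153), and 0.60 (0.00880) without MI-3454 3, the library with the highest LTC4S level of its group and the most RN7SL1.

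With gilteritinib, ALOX5 thus fell and LTC4S rose, while LTA4H differed from DMSO by -0.15 ± 0.10 (edgeR adjusted p = 0.347). Markers of eosinophils, basophils and mast cells, cells known for LTC4S, were also higher with gilteritinib, with EPX at 38.8 ± 3.77 CPM (SD, n = 3) in DMSO and 145 ± 11.5 with gilteritinib. Their sum and EPX were lower with MI-3454 (EPX 19.6 ± 5.79 CPM) and the combination (6.53 ± 0.756), where LTC4S was also above DMSO. TPSB2 went as EPX did, with means of 9.02 CPM in DMSO, 40.7 with gilteritinib, 2.96 with MI-3454 and 1.51 with the combination. PRG2, another eosinophil granule gene, averaged 0.997, 8.10, 3.82 and 3.45 CPM in the same order, above DMSO under each treatment as LTC4S was. The other listed markers, CLC, CPA3, HDC, MS4A2, IL5RA and KIT, averaged under 1 CPM in every group. The part of these markers in the LTC4S values was not tested.

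CYP4F3 (ENSG00000186529.16, chr19:15640897-15662825, plus strand), the leukotriene B4 hydroxylase, was found almost only in libraries with MI-3454. It had 1, 4 and 1 reads in DMSO (0.0934, 0.389 and 0.111 CPM) and 3, 0 and 2 with gilteritinib (0.257, 0 and 0.218 CPM). With MI-3454 it had 141, 139 and 136 reads (15.6, 14.2 and 14.6 CPM), and with the combination 101, 79 and 66 (8.67, 8.15 and 9.02 CPM). The groups with MI-3454 did not overlap those without, and the combination lay below MI-3454 alone. The level with MI-3454 was 73.9-fold that of DMSO by summed counts (exact 95% counting interval 33.7 to 202.5), the difference with which the gene was chosen. The combination against gilteritinib uses none of those libraries. However, CYP4F3 passed the filter on low counts only through the groups with MI-3454, in which it is high. The ratio of the combination to gilteritinib was 50.1-fold (21.2 to 155.6), with a log2 fold change of 5.60 ± 0.36 (edgeR adjusted p = 1.436e-08). That p-value is therefore given as a description and not as independent support. The intervals cover counting error only.

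CYP4F3 was lower with the combination than with MI-3454 alone, with a log2 fold change of -0.75 ± 0.14 (edgeR adjusted p = 0.00250). This comparison shares the MI-3454 libraries with the choice of the gene. That p-value too is therefore given as a description and not as independent support. Over the 13 alternatives the log2 fold change was -0.79 to -0.66. LTA4H rose in the same comparison. The monocyte marker sum, mostly LYZ, was higher with the combination than with MI-3454 alone, CYP4F3 lower. From MI-3454 to the combination, CYBB averaged 244 and 394 CPM, MNDA 91.6 and 112, and FCN1 1.07 and 4.81. VCAN was lower, like CYP4F3 (4.72 and 2.55 CPM). The libraries of the 2 groups overlapped for CD14 (12.6 and 14.1 CPM), CSF1R (159.5 and 151.5) and CD68, which stayed under 1 CPM. The part of these markers in the CYP4F3 values was not tested. Of its 50-base stretches, 8.80% occur in other transcripts, most of them in its neighbour CYP4F2. CYP4F2 itself averaged 0.217 CPM with MI-3454 and was at 0 with the combination, and none of the 5 neighbouring CYP4F genes examined passed the filter on low counts.

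PTGS1 (ENSG00000095303.17, chr9:122370530-122395703, plus strand), the constitutive cyclooxygenase, was lower in both groups with MI-3454. It measured 46.8, 43.0 and 36.2 CPM in DMSO, 40.2, 39.1 and 37.7 with gilteritinib, 28.9, 23.99 and 27.2 with MI-3454, and 30.2, 27.8 and 29.8 with the combination. The libraries with MI-3454 all lay below those without it. The log2 fold change was -0.60 ± 0.14 with MI-3454 (edgeR adjusted p = 0.0102), -0.45 ± 0.12 with the combination (0.00541) and -0.07 ± 0.12 with gilteritinib (0.728). The call with MI-3454 was lost without DMSO 1 (adjusted p = 0.0623) or MI-3454 2 (0.0573). Against gilteritinib, a comparison with no library in common with MI-3454 against DMSO, the combination was lower by 0.37 ± 0.09 (adjusted p = 0.00221).

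PTGS2 (ENSG00000073756.12, chr1:186671791-186680427, minus strand), the inducible cyclooxygenase, went the other way at a low level. It had 2.80, 1.26 and 2.11 CPM in DMSO, 1.54, 1.08 and 1.53 with gilteritinib, 2.87, 3.79 and 3.21 with MI-3454, and 4.29, 3.41 and 4.10 with the combination, from 9 to 50 reads per library. The libraries with MI-3454 lay above all those without it, although DMSO 1 came close. In log2 units the combination was higher than DMSO by 1.00 ± 0.29 (edgeR adjusted p = 0.00763) and higher than gilteritinib by 1.53 ± 0.26 (0.000181). MI-3454 against DMSO was 0.73 ± 0.32 (adjusted p = 0.141), which did not pass, and the combination call against DMSO was lost without the 4 libraries highest in RN7SL1 (0.66, adjusted p = 0.0898).

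TBXAS1 (ENSG00000059377.17, chr7:139777051-140020325, plus strand), thromboxane synthase, rose with MI-3454, with or without gilteritinib. It measured 42.4, 38.7 and 42.1 CPM in DMSO, 35.4, 32.9 and 36.7 with gilteritinib, 69.5, 66.5 and 65.4 with MI-3454, and 63.6, 64.1 and 61.6 with the combination. All 6 libraries with MI-3454 lay above the 6 without it. The 3 DMSO libraries also lay above those of gilteritinib, and the 3 MI-3454 libraries above those of the combination, differences that did not pass the test. The log2 fold change was 0.76 ± 0.11 with MI-3454 (edgeR adjusted p = 0.000455), 0.69 ± 0.11 with the combination (3.193e-05) and -0.19 ± 0.11 with gilteritinib (0.248). The combination against gilteritinib gave 0.90 ± 0.08 (adjusted p = 4.119e-07) and against MI-3454 -0.06 ± 0.09 (0.650). The called changes held in every alternative tried. HIPK2, on the opposite strand, overlaps TBXAS1 and had 7182 counts against 5957, and the strand setting of the counting is not given in the sources used here.

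**Figure D3:**
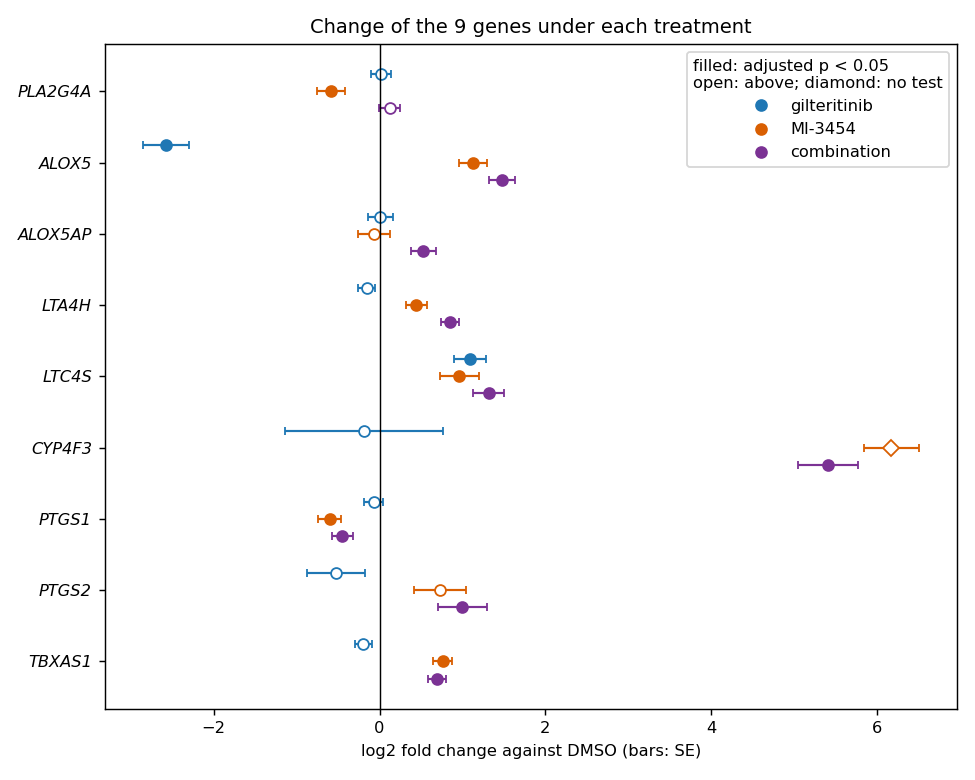
Log2 fold changes against DMSO (x axis) of the 9 genes under gilteritinib, MI-3454 and the combination, with SE bars. Filled points passed an adjusted p under 0.05, and open points did not. The open diamond marks CYP4F3 with MI-3454, for which no test is given because the gene was chosen with that difference. LTC4S is filled under all 3 treatments, ALOX5 lies at -2.57 with gilteritinib and 1.48 with the combination, and PTGS1 is filled to the left with MI-3454 and the combination.

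MI-3454 and gilteritinib were also compared directly. Leaving out CYP4F3, which was chosen with the MI-3454 libraries, 4 of 8 members were higher with MI-3454 (ALOX5, LTA4H, PTGS2 and TBXAS1) and 2 lower (PLA2G4A and PTGS1), where 17.4% of all genes were called, 9.96% higher and 7.43% lower. ALOX5 showed a 12.9-fold difference (log2 3.69 ± 0.26, edgeR adjusted p = 2.153e-06), and PTGS2 differed by 1.24 ± 0.28 (0.00964). LTC4S differed by -0.14 ± 0.20 (adjusted p = 0.673) and ALOX5AP by -0.08 ± 0.14 (0.734). The PLA2G4A difference, -0.62 ± 0.15 (adjusted p = 0.0158), was lost with total-count scaling (0.0601) and without gilteritinib 1 (0.0771) or MI-3454 1 (0.0600).

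Beyond the 9 genes, 89 others of the pathway were listed by role and 57 passed the filter on low counts. With MI-3454 against DMSO 16 of them were higher and 7 lower, with gilteritinib 8 and 12, and with the combination 23 and 18, against the shares of all genes called given above. Their median log2 fold changes were 0.13, -0.0012 and 0.18. PTGIS is among the lower calls of each of these comparisons, and FPR2 among the higher calls with MI-3454 and the combination. Both passed the filter only through groups in which they are high, so their calls are no independent support. With gilteritinib the counts moved with single libraries, from 4 higher without DMSO 1, gilteritinib 1 or gilteritinib 3 to 12 without DMSO 2, and with the replicate block they were 15 and 17.

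Among the genes that feed the pathway, the desaturases FADS1 and FADS2, which take part in making arachidonic acid from linoleic acid, were lowest with the combination. FADS2 measured 270, 278 and 201 CPM in DMSO, 266, 295 and 258 with gilteritinib, 314, 249 and 350 with MI-3454, and 52.9, 46.2 and 33.2 with the combination. The combination libraries lay far below all others, which overlapped. The difference in the change with gilteritinib between presence and absence of MI-3454 was -2.92 ± 0.23 for FADS2 (edgeR adjusted p = 8.158e-07) and -1.84 ± 0.17 for FADS1 (2.979e-06). For FADS1 the log2 fold change was -1.78 ± 0.13 with the combination, 0.47 ± 0.13 with MI-3454 (adjusted p = 0.0262) and -0.41 with gilteritinib, and the calls with the single agents were each lost in 5 alternatives.

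Of 5 genes listed as partners and regulators of 5-lipoxygenase, ANXA1, the annexin that restrains phospholipase A2, rose from 13.9, 9.62 and 14.8 CPM in DMSO to 176, 152 and 158 with MI-3454 and 183, 181 and 164 with the combination. Its gilteritinib values were 22.3, 15.8 and 25.0 CPM, just above DMSO, and that call (adjusted p = 0.0211) was lost without DMSO 1, gilteritinib 1 or gilteritinib 3. The log2 fold changes were 3.72 ± 0.17 with MI-3454 (edgeR adjusted p = 4.698e-08) and 3.86 ± 0.14 with the combination (1.244e-12). MAPK14, a p38 kinase upstream of 5-lipoxygenase phosphorylation, rose by 1.33 ± 0.12 and 1.67 ± 0.11. COTL1, a binding partner of 5-lipoxygenase, was called with the combination (0.45), and DICER1 and MAPKAPK2 were called under no treatment against DMSO. ALOX12, the 12-lipoxygenase and the only other lipoxygenase that passed the filter, was higher with MI-3454 (0.75 ± 0.18, adjusted p = 0.0103) and lower with gilteritinib (-0.58 ± 0.12, 0.00698), the same directions as ALOX5; the call with MI-3454 was lost without DMSO 1 (0.0620).

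Downstream of LTC4S, GGT5, which trims leukotriene C4 to D4, fell from 41.9, 51.9 and 43.8 CPM in DMSO to 3.34, 3.01 and 3.49 with gilteritinib, and was 27.4, 32.6 and 34.5 with MI-3454 and 6.27, 4.95 and 5.74 with the combination. The groups did not overlap. The log2 fold change was -3.76 ± 0.16 with gilteritinib (edgeR adjusted p = 2.238e-08), a fall in the group in which LTC4S rose. DPEP2, a dipeptidase of the next step, averaged 7.54 ± 1.32 CPM (SD, n = 3) in DMSO and 29.2 ± 4.05 with the combination (log2 2.03 ± 0.17, adjusted p = 2.676e-08), and was called under neither single agent. MGST1, a membrane glutathione transferase of the same family as LTC4S, rose by 1.47 ± 0.18 with MI-3454 (adjusted p = 0.000114) and 1.70 ± 0.14 with the combination (1.869e-08).

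Of the receptors for leukotrienes and lipoxins, all 5 tested were higher than DMSO with the combination, where 29.2% of all genes were higher, and 3 of 5 with MI-3454, where 10.1% were. One of the 5, FPR2, passed the filter only through the groups in which it is high, and without it the counts were 4 of 4 and 2 of 4. LTB4R, the high-affinity leukotriene B4 receptor, measured 23.1, 23.7 and 23.9 CPM in DMSO, 31.7, 27.8 and 27.3 with gilteritinib, 33.1, 36.2 and 38.6 with MI-3454 and 47.6, 44.9 and 46.6 with the combination. These groups did not overlap, and the change with the combination was 1.05 ± 0.11 (edgeR adjusted p = 6.33e-07). With gilteritinib LTB4R was called only in some alternatives, the replicate block among them (0.33, adjusted p = 0.00866). CYSLTR1, a receptor for cysteinyl leukotrienes, rose by 0.65 ± 0.17 with MI-3454, a call lost without DMSO 3 or MI-3454 1, and by 0.62 ± 0.13 with the combination. LTB4R2 (1.06 ± 0.19) and OXER1 (1.05 ± 0.35), receptors for leukotriene B4 and oxo-fatty acids, were called with the combination, OXER1 not without combination 2 (0.66, adjusted p = 0.158). FPR2, a receptor of lipoxin A4, had no read in DMSO or gilteritinib libraries and 34 and 25 reads over the 3 libraries with MI-3454 and the combination, at least 12.1-fold and 8.72-fold higher than the floor of 3 counts over the DMSO group.

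In the prostanoid branch, PTGIS, prostacyclin synthase, had 93 reads over the DMSO libraries (2.61, 3.79 and 2.89 CPM) and none in any of the 9 treated libraries. Against the floor of 3 counts over a group it was at least 29.1-fold lower with MI-3454, 30.1-fold with gilteritinib and 29.6-fold with the combination. PTGES, the inducible prostaglandin E synthase, had 1 read in total over the 12 libraries. With the combination 5 of 7 tested prostanoid synthases were lower, where 28.4% of all genes were, and 4 of 6 without PTGIS, which passed the filter only through DMSO. Among them were AKR1B1 (-1.21 ± 0.13, edgeR adjusted p = 6.433e-07) and CBR1 (-1.01 ± 0.12, 2.477e-06). AKR1C3 was called higher with MI-3454 (1.12) and the combination (0.92), at 0.241 to 2.97 CPM, and 4.53% of its 50-base stretches occur in other transcripts, mostly of AKR1C2; both calls were lost in 6 or more of 13 alternatives.

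The receptor for thromboxane, TBXA2R, was lower under every treatment, while the synthase TBXAS1 was higher with MI-3454 and the combination. It measured 7.75, 8.75 and 5.23 CPM in DMSO, 2.82, 1.57 and 1.42 with gilteritinib, 3.09, 3.59 and 3.75 with MI-3454, and 0.515, 0.103 and 0 with the combination. The groups did not overlap, and DMSO was highest. The log2 fold changes were -1.83 ± 0.29 with gilteritinib (edgeR adjusted p = 0.00102), -1.01 ± 0.24 with MI-3454 (0.0117) and -4.77 ± 0.46 with the combination (1.775e-07), the last from 7 reads in the combination. The call with MI-3454 was lost without DMSO 1 (0.0525) or MI-3454 1 (0.0516). PTGER2, a receptor for prostaglandin E2, rose under every treatment, by 1.16 ± 0.18, 2.03 ± 0.19 and 2.33 ± 0.17 with gilteritinib, MI-3454 and the combination. PTGIR, the prostacyclin receptor, fell under every treatment, with 8.84 ± 2.03 CPM (SD, n = 3) in DMSO and 1.84 ± 0.871 with the combination, and its call with gilteritinib was lost without gilteritinib 3 (0.0636).

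**Figure D4:**
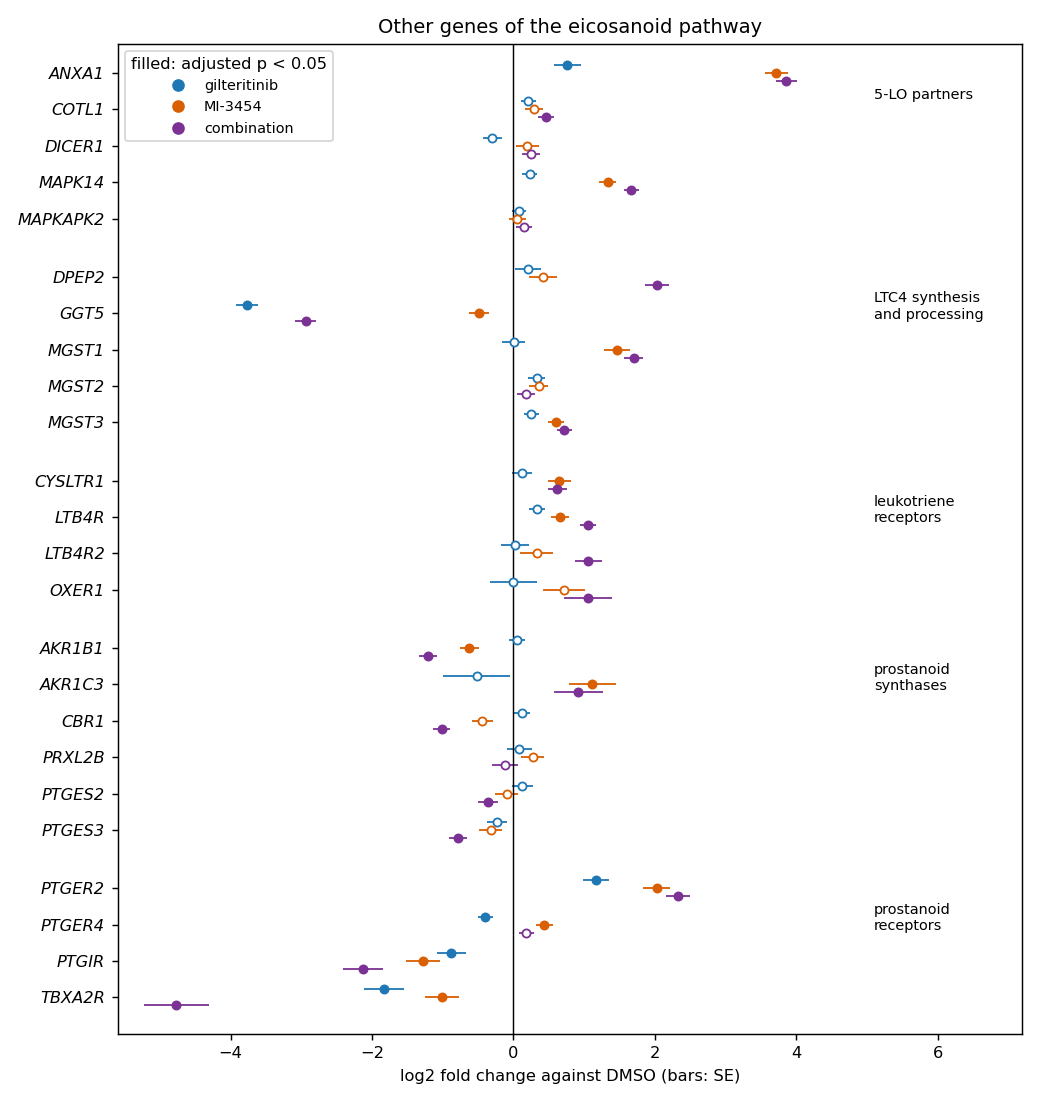
Log2 fold changes against DMSO (x axis, SE bars) of other pathway genes grouped by role, under gilteritinib, MI-3454 and the combination; filled points passed an adjusted p under 0.05. PTGIS and FPR2, which had no reads in some groups, are left out. GGT5 lies at -3.76 with gilteritinib, ANXA1 at 3.72 with MI-3454, and TBXA2R at -4.77 with the combination.

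The genes whose pattern over the 12 libraries was most like that of each member were found by the root mean square difference of centred log2 CPM. For CYP4F3 they were SERPINA1 (0.53), CD14 (0.55) and MNDA (0.64), while CYP4F3 itself varied by 2.53 about its own mean. For ALOX5 they were NLRP12 (0.43), ACSM3 (0.47) and LRP1 (0.54), with 1.52 for ALOX5 itself. NLRP12 averaged 22.5 CPM in DMSO, 2.67 with gilteritinib, 26.6 with MI-3454 and 43.8 with the combination, and SERPINA1 0.164, 0.252, 9.58 and 13.1 CPM in the same order. SERPINA1 was higher with the combination than with MI-3454 alone, where CYP4F3 was lower. The closest genes for LTC4S were MXD3, OSBPL5 and SERINC2 (0.13 to 0.18), and for TBXAS1 PPT1, F11R and GNPDA1 (0.091 to 0.11). For the remaining 5 members the closest genes were RASSF2 (LTA4H, 0.071), ITGA5 (PTGS1, 0.086), TMEM81 (PLA2G4A, 0.14), SMPD1 (ALOX5AP, 0.14) and CYBRD1 (PTGS2, 0.23).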

How the data were processed

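RNA-seq of 12 MOLM-13 libraries (4 groups of 3, taken from the titles) was used. The authors deposited whole-number counts of reads per gene, not normalized; GRCh38, STAR 2.7.1a, HTSeq 0.11.2, cutadapt 2.1 and DESeq2 stand in the submitters' processing notes, without their order. The strand setting and annotation release were not given in the sources used here. The treatment label of 2 of 3 libraries in each group with MI-3454 ends in another number than the title, and the titles were followed. Positions and exon lengths come from GENCODE 29, which matched 58516 of 60668 genes.

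Counts were tested with edgeR 4.0.16 (filterByExpr over the 4 groups, TMM, quasi-likelihood F test, Benjamini-Hochberg, adjusted p under 0.05; R 4.3.3, limma 3.58.1) within the 6 libraries of each comparison, and over all 12 for the difference between changes. The SE is that of the log2 fold change. The procedure was tested on simulated data. Alternatives were DESeq2 1.42.0, other scalings, no filter, 1 fit of all libraries, the replicate block, and libraries left out. The correlation of deviations between libraries of the same number was above 0 for every number only with DMSO and gilteritinib (0.14, 0.39 and 0.11). DMSO 2 and gilteritinib 2, the pair at 0.39, were also the libraries highest in RN7SL1 of their groups. Whether these numbers mark paired cultures is therefore not known. All replicates differed beyond counting noise.

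All 9 members are named; of other pathway lists, up to 4 called genes per comparison with the largest change and at least 1 CPM, and uncalled genes with values; the 3 closest genes of each member. Members and lists were chosen with earlier results of these data known.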

Additional observations from a re-analysis of the deposited data

Results flagged for a closer look

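For 3 of the 9 genes the change with gilteritinib differed between cultures with and without MI-3454, by edgeR's test of the difference itself over 12 libraries, where 15.3% of all genes were called. The difference was 2.93 ± 0.31 on the log2 scale for ALOX5 (adjusted p = 1.471e-05): its change with gilteritinib was -2.57 without MI-3454 and 0.36 with it, with all 3 libraries of gilteritinib alone below every other library. For PLA2G4A the difference was 0.69 ± 0.20 (adjusted p = 0.0274), from 0.02 without and 0.72 with MI-3454, and all 3 combination libraries lay above the 3 MI-3454 libraries, but this call was lost in 5 of 18 alternatives. For LTA4H it was 0.56 ± 0.14 (adjusted p = 0.0130), from -0.15 without and 0.42 with MI-3454, again with no overlap between combination and MI-3454. The share of reads outside exons and the monocyte marker sum were also highest in the combination; their part in these differences was not tested. Groups of 3 were not searched for single libraries far from the others.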

How the results depend on the processing

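Of 864 alternative values of the members' log2 fold changes, 828 kept their side of the threshold, 25 lost a call and 11 gained one. No value called in the main analysis or in the alternative changed direction. Some values called in neither changed sign, such as those of CYP4F3 with gilteritinib against DMSO (-0.695 to 1.176). ALOX5AP with MI-3454 against DMSO (-0.27 to 0.098) was another. Counts of calls moved by over 1.5 times as follows, and the cause was not tested unless fewer libraries were fitted. With total-count scaling, 1 member was lower with MI-3454 against DMSO (2 in the main analysis) and 1 against gilteritinib (2), and 14 other pathway genes were higher with the combination against MI-3454 (9). Without a filter on low counts, 4 pathway genes were lower with MI-3454 against gilteritinib (2).

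With the replicate block, MI-3454 against DMSO called 1678 genes (2658), with 1 member (2) and 4 pathway genes (7) lower; gilteritinib against DMSO called 4928 genes (2110) with 15 pathway genes higher (8); and MI-3454 against gilteritinib had 1 pathway gene lower (2). Beyond these and the calls of PLA2G4A and LTA4H with MI-3454, the block changed no call of a member. Whether replicate numbers mark paired cultures is not known for any groups, gilteritinib and DMSO included.

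Without the 4 libraries highest in RN7SL1, which leaves 2 per group, calls numbered 4250 for gilteritinib against DMSO (2110), 5133 for MI-3454 against gilteritinib (2429) and 3393 for the difference in gilteritinib's change (2136). Pathway genes were then 15 higher for gilteritinib (8), 11 lower for MI-3454 against DMSO (7), 7 lower for MI-3454 against gilteritinib (2), and 14 lower for the difference (9).

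Leaving out 1 library at a time, members called lower ranged from 0 (without DMSO 1) to 2 for MI-3454 against DMSO, from 1 (without MI-3454 1 or gilteritinib 1) to 3 (without MI-3454 3) for MI-3454 against gilteritinib, and from 0 to 1 (without DMSO 2) for the difference. Pathway genes lower ranged from 3 (without MI-3454 1) to 8 for MI-3454 against DMSO, from 5 (without gilteritinib 3) to 16 for gilteritinib against DMSO, and from 1 to 8 (without MI-3454 3) for MI-3454 against gilteritinib; those higher with gilteritinib ranged from 4 to 12. All genes called ranged from 1243 (without gilteritinib 3) to 3985 (without DMSO 2) for gilteritinib, 2456 (without combination 2) to 5074 for the combination against MI-3454, 1589 (without gilteritinib 1) to 4690 (without MI-3454 3) for MI-3454 against gilteritinib, and 1305 (without combination 3) to 2698 for the difference.

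Of 777 values for named pathway genes, 724 kept their side of the threshold, 38 lost a call and 15 gained one. Again no value called in either fit changed direction. Some uncalled values changed sign, among them MGST1 (-0.161 to 0.105) and OXER1 (-0.351 to 0.211) with gilteritinib against DMSO. Members' mean levels moved beyond 1 SD in 8 of 72 rescaled values, all with total-count scaling. Depth was lowest for CYP4F3 without MI-3454, at 0 to 4 reads per library; ALOX5 had 8 to 14 and PTGS2 9 to 18 with gilteritinib.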
